A study of Rattus norvegicus with 6 samples.

Results

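Plasminogen activation and coagulation were described through 8 genes chosen by name, Plau, Plaur, Plat, Serpine2, Anxa2, F3, F13a1 and Tfpi, in sciatic nerve RNA of Sprague-Dawley rats that were about a month old. All 8 were found, each under 1 Ensembl identifier, among the 30957 genes listed, and all 8 were among the 15195 that passed the filter on low counts. The rats formed 3 groups of 2. The control group had the nerve exposed but not clamped according to the methods, while the sample labels call it a normal control. The D4 group was taken 4 days and the D7 group 7 days after the nerve had been crushed with forceps at mid-length. A single library was made from each rat (called a and b in every group). The methods name chloral hydrate anesthesia for the crush groups and describe the same operation without the clamp for the control group. No transgene was mentioned. The injured samples were lesion tissue, and how far they extended from the crush was not stated.

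Plasminogen is a circulating proenzyme that becomes plasmin, a protease that dissolves fibrin and acts on laminin and other matrix proteins. The activators that make plasmin are urokinase (Plau), which works at the cell surface on its receptor (Plaur), and tissue plasminogen activator (Plat). Serpine2 encodes protease nexin-1, a serpin secreted by glial cells and fibroblasts that inhibits thrombin, urokinase and tissue plasminogen activator. Annexin A2 (Anxa2) with S100a10 forms a docking site for plasminogen and Plat. On the coagulation side, F3 encodes tissue factor, which starts clotting, Tfpi its inhibitor, and F13a1 the transglutaminase subunit that cross-links fibrin. In crushed nerve, fibrinogen leaks in from the blood, and the fibrin formed from it is cleared while Schwann cells break down myelin and guide new axons.

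The files hold fragment counts per gene, with 18727255 to 25350886 fragments in a library for mRNAs. Scaled counts are CPM (counts relative to the library total) after TMM scaling, which corrects the library totals for composition, and FPKM is the authors' count scaled to transcript length and library total. The defining Schwann cell genes Pmp22, Mbp, Prx, S100b and Sox10 were all detected in every library, as nerve requires, and their summed scaled counts were 28090 to 41970 in control libraries, 2487 to 2554 on D4 and 4613 to 7032 on D7. This sum was mostly the myelin genes Pmp22, Mbp and Prx, whose control means were 15920, 10600 and 6235. The mean of S100b was 1969 in control, 1121 on D4 and 1010 on D7. Sox10 did not fall, with means of 307.3, 322.4 and 474.8, so the sum does not count Schwann cells. The 8 macrophage genes measured (such as Csf1r and Itgam) summed to 342.8 to 374.3 in control, 1148 to 1175 on D4 and 728.2 to 906.2 on D7, and all 8 rose at both days. In such bulk tissue, more cells of a type and more RNA per cell cannot be told apart.

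Of the 8 genes, Plau, Plaur, Plat, Serpine2 and Anxa2 rose after the crush, F3 fell, and Tfpi and F13a1 did not pass the test. A gene was called when its adjusted p-value in the edgeR quasi-likelihood test was under 0.05 and its change was at least 2-fold. "Rose" and "fell" are used below wherever the adjusted p-value was under 0.05. In the control vs D4 group 5 of the 8 genes were called, Plau, Plaur, Plat and Serpine2 as higher and F3 as lower, where 21.9% of all mRNAs tested were called, 11.2% as higher and 10.7% as lower. In the control vs D7 group 3 of the 8 were called, Plau, Plaur and Plat, all higher, against 18.8% of all mRNAs in either direction and 9.83% as higher. By the adjusted p-value alone 6 of the 8 changed at each day, 5 higher and 1 lower, where 44.2% of all mRNAs did so at D4 (21.6% higher, 22.6% lower) and 37.5% at D7 (19.5% higher, 18.1% lower). From D4 to D7, 2 of the 8 fell, Plau and Serpine2, where 4.67% of all mRNAs changed and 1.79% fell. The median log2 fold change of the 8 genes was 1.32 at D4 and 0.55 at D7, beside −0.04 and 0.01 for all mRNAs tested. The 2 comparisons share their control libraries. The 8 genes, and the further lists below, were chosen with earlier results of these data known. Their shares and medians beside those of all mRNAs are therefore a description and not a test of the set.

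**Figure D1:**
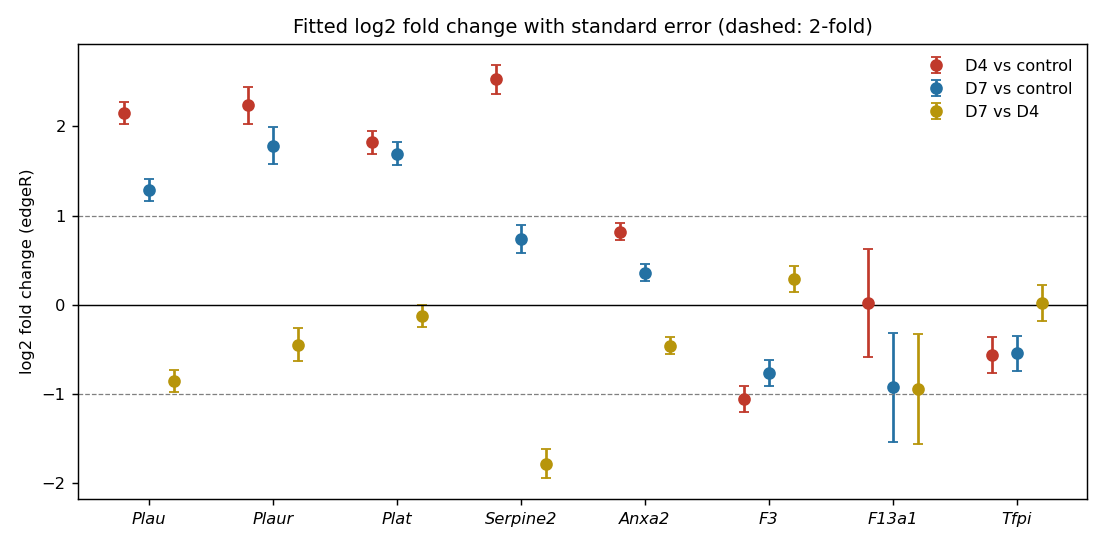
Fitted log2 fold change (vertical axis) of the 8 genes (horizontal axis) for D4 vs control, D7 vs control and D7 vs D4, with bars of 1 standard error and dashed lines at 2-fold. Plau, Plaur, Plat and Serpine2 lie above 2-fold at D4, Serpine2 alone lies beyond 2-fold between the days, and F13a1 has the widest bars.

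Plau, on chromosome 15 from 3644769 to 3650819 of the Rnor_6.0 genome, had 269 (library a) and 231 (library b) counts in control, 1634 and 1519 on D4 and then 690 and 719 on D7. The 3 groups did not overlap, and D7 lay between control and D4. Here and below, such separation is a description of 2 libraries a group, and the share of all mRNAs that showed it is not given. In scaled counts the level was 13.9 ± 0.0515 (SD, n = 2) in control, 61.6 ± 7.75 on D4 and 33.99 ± 2.25 on D7. Plau rose 4.43-fold at D4 (log2 fold change 2.15, standard error 0.13, edgeR adjusted p = 0.000172) and 2.45-fold at D7 (1.29, standard error 0.13, adjusted p = 0.000985). From D4 to D7 it fell by 0.86 on the log2 scale (standard error 0.12, adjusted p = 0.0250), which is short of 2-fold. This difference did not pass without D4 library a (adjusted p = 0.196), D4 library b (0.114) or D7 library a (0.146).

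Plaur, the receptor that holds urokinase at the cell surface (chromosome 1, 81328183 to 81344708), was the least expressed of the 8 genes in the control libraries. It had 34 and 32 counts in control, 218 and 227 on D4 and then 127 and 136 on D7. Here too the groups were separate and D7 lay in the middle. The rise was 4.70-fold at D4 (log2 fold change 2.23, standard error 0.21, edgeR adjusted p = 0.000559) and 3.45-fold at D7 (1.78, standard error 0.21, adjusted p = 0.00171). The difference between the days, −0.45 on the log2 scale with a standard error of 0.19, did not pass the threshold (adjusted p = 0.209). In FPKM, which allows genes of different length to be compared, Plau exceeded Plaur 5.77-fold and 6.33-fold in the control libraries, 5.35-fold and 5.99-fold on D4 and 4.23-fold and 4.34-fold on D7. The ligand and its receptor thus kept a similar ratio in the control and D4 libraries, and the ratio was lowest in both D7 libraries.

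Plat (chromosome 16, 74098260 to 74122889) was the activator with the higher level in every library. It had 3221 and 2354 counts in control, 12328 and 15735 on D4 and then 11054 and 9662 on D7. Every injured library exceeded both control libraries. In scaled counts it went from 153.9 ± 17.0 (SD, n = 2) in control to 543.6 ± 53.2 on D4 and 498.5 ± 29.0 on D7, so that the spreads of the injured groups met. The rise was 3.53-fold at D4 (log2 fold change 1.82, standard error 0.13, edgeR adjusted p = 0.000256) and 3.24-fold at D7 (1.70, standard error 0.13, adjusted p = 0.000524). No change between the days was detected (log2 difference −0.12, standard error 0.12, adjusted p = 0.588). Plat exceeded Plau in FPKM by 7.52-fold to 8.83-fold in control, 5.57-fold to 7.64-fold on D4 and 9.91-fold to 11.8-fold on D7.

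Serpine2, the inhibitor of both activators (chromosome 9, 85560863 to 85626094), rose most at D4 among the 8 genes and receded most afterwards. It had 4553 and 3221 counts in control, 29703 and 33862 on D4 and then 6663 and 8161 on D7. In scaled counts these were 214.4 ± 28.5 (SD, n = 2), 1235 ± 22.4 and 358.3 ± 64.3, and the 3 groups did not overlap. Serpine2 rose 5.76-fold at D4 (log2 fold change 2.53, standard error 0.17, edgeR adjusted p = 0.000218). At D7 it was 1.67-fold above control (0.74, standard error 0.16, adjusted p = 0.0144), below the 2-fold limit, and without control library b it did not pass (adjusted p = 0.0547). From D4 to D7 it fell by 1.79 on the log2 scale (standard error 0.16, adjusted p = 0.0117). It was the only 1 of the 8 genes called between the days, in a comparison that called 2.18% of all mRNAs, 0.494% as lower. Without D4 library a or b the adjusted p of this difference was 0.139 and 0.112, with log2 differences of −1.80 and −1.77.

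Because Serpine2 and Plat moved on different courses, their ratio of FPKM within a library changed direction. Plat stood at 0.804 and 0.831 times Serpine2 in control, 0.472 and 0.528 times on D4, and 1.89 and 1.35 times on D7. Serpine2 was therefore the more abundant of the pair in the control and D4 libraries and Plat in both D7 libraries, with no overlap between the groups. Plau relative to Serpine2 was 0.0910 and 0.111 in control, 0.0848 and 0.0691 on D4, and 0.160 and 0.136 on D7, again highest in the D7 libraries. These ratios are a description, since 2 libraries a group cannot reach a low p in a permutation test.

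**Figure D2:**
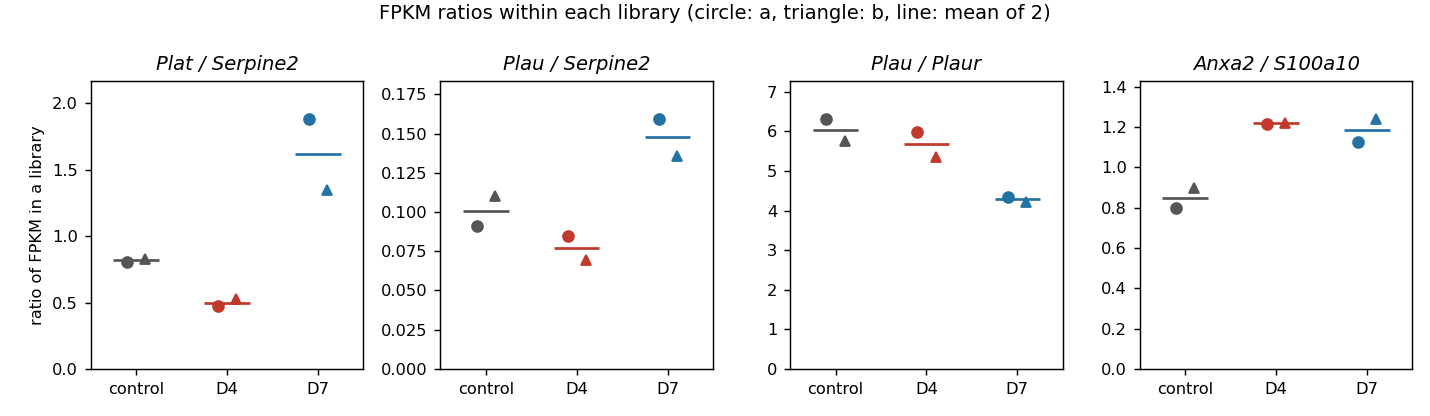
Ratio of FPKM of gene pairs within each library (vertical axes, from 0) by group, with circles for library a, triangles for library b and a line at the mean of 2. Plat / Serpine2 is 0.472 and 0.528 on D4 against 1.89 and 1.35 on D7, Plau / Plaur is lowest on D7, and Anxa2 / S100a10 is above 1 only in injured libraries.

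Anxa2 (chromosome 8, 75687100 to 75723594) had the highest FPKM of the 8 genes in every library. It had 7064 and 5617 counts in control, 14832 and 17092 on D4 and then 9443 and 9261 on D7. The scaled counts, 351.3 ± 17.8 (SD, n = 2) in control, 620.1 ± 16.0 on D4 and 450.8 ± 10.5 on D7, did not overlap between groups. The rise of 1.77-fold at D4 (log2 fold change 0.82, standard error 0.09, edgeR adjusted p = 0.00116) and of 1.28-fold at D7 (0.36, standard error 0.09, adjusted p = 0.0265) was below 2-fold at both days. The D7 rise did not pass in a fit of the 2 groups alone (the 2-group fit, adjusted p = 0.0680), in the exact test of edgeR (0.0768) or without any 1 library other than control a (0.0613 to 0.0905). From D4 to D7 the log2 difference of Anxa2 was −0.46 (standard error 0.09, edgeR adjusted p = 0.0507), which did not pass. This difference did pass in the 2-group fit (adjusted p = 0.0347) and with DESeq2 (3.3e-06). It also passed without TMM factors (edgeR adjusted p = 0.0498) and with at least 10 counts in every library (0.0469). It did not pass with a block for the library letter, in the exact test of edgeR or without the filter on low counts. When 1 library was left out, the log2 difference was −0.487 to −0.434. S100a10, the partner of Anxa2 in the plasminogen docking complex, had 3680 and 2600 counts in control, 5074 and 5836 on D4 and then 3489 and 3104 on D7. Its log2 fold change was 0.29 at D4 (standard error 0.12, adjusted p = 0.0852) and −0.13 at D7 (adjusted p = 0.422), and neither passed. The D4 value did pass without TMM factors (0.58, adjusted p = 0.00611), with DESeq2 (adjusted p = 0.04998) and without control library a (adjusted p = 0.0279). In FPKM, Anxa2 stood at 0.799 and 0.90 times S100a10 in control and at 1.13 to 1.24 times in the 4 injured libraries.

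Of the 5 genes that rose at D4, the 4 with a RefSeq promoter entry (Plau, Plaur, Serpine2 and Anxa2) are given here with the 100 bases from 130 to 31 before the annotated start, because they rose together at D4. The sequences are from RefSeq on the GRCr8 build, whose positions differ from those of the Rnor_6.0 build used for the counts. Capitals mark matches, on either strand, to the letters TGANTCA (an AP-1 site), GGGCGG (a GC box) or TATAAA. The stretches are chr15:3512018-3512117 on the minus strand for Plau, chr1:89181233-89181332 on the plus strand for Plaur, chr9:88637233-88637332 on the minus strand for Serpine2 and chr8:78986122-78986221 on the plus strand for Anxa2.
Plau: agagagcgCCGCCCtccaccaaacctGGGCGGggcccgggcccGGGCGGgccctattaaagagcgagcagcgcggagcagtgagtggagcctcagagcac
Plaur: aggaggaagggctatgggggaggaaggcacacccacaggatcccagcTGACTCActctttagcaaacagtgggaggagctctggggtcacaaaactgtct
Serpine2: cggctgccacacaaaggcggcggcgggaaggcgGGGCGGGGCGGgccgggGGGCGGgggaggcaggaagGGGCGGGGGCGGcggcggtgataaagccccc
Anxa2: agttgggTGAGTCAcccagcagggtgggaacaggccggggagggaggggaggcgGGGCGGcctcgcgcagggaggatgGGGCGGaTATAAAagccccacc

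Of the 8 genes, 6 had promoter entries, with 2 for Tfpi, and Plat and F3 had none. In the 250 bases before the start, an AP-1 match was found in Plaur (first base 83 before the start) and Anxa2 (123 before it), a motif that 6.34% of 33469 windows held. GC boxes were found in Plau (3 matches), Serpine2 (6, including an overlapping pair), Anxa2 (2) and 1 of the Tfpi windows (1), against 30.5% of all windows. TATAAA was found in Anxa2 alone, against 12.9%, and the cyclic AMP response element TGACGTCA in none, against 1.59%. The F13a1 window held none of these letters. A match describes letters and not a bound factor.

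F3 (chromosome 2, 225310624 to 225322272) went the other way. Tissue factor mRNA had 1698 and 1800 counts in control, 1256 and 1154 on D4 and then 1186 and 1201 on D7, so that both control libraries exceeded every injured one. In scaled counts the level was 97.99 ± 14.9 (SD, n = 2) in control, 47.1 ± 6.31 on D4 and 57.6 ± 2.64 on D7. F3 fell to 0.481 times the control level at D4 (log2 fold change −1.06, standard error 0.15, edgeR adjusted p = 0.00244) and to 0.588 times at D7 (−0.77, standard error 0.15, adjusted p = 0.00985). The D7 value did not pass without D7 library a (adjusted p = 0.0585). The change at D4 lay close to the 2-fold limit. It was −0.90 without control library b, −0.93 without D4 library b and −0.77 without TMM factors, all with adjusted p-values under 0.05. The difference of 0.29 between D7 and D4 was not detectable at this spread (standard error 0.15, adjusted p = 0.285).

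Tfpi (chromosome 3, 71852744 to 71893618), the inhibitor of the tissue factor pathway, had 1103 and 1002 counts in control, 1076 and 949 on D4 and then 699 and 959 on D7. The counts overlapped between control and D4, and after scaling they did not. The scaled counts were 56.8 and 60.4 in control and between 32.8 and 47.5 in the injured libraries, which did not reach the control values. The log2 fold change was −0.57 at D4 (standard error 0.20, edgeR adjusted p = 0.0613) and −0.55 at D7 (standard error 0.20, adjusted p = 0.0758), so neither passed the threshold. The D4 value did pass in the 2-group fit (adjusted p = 0.0356), with DESeq2 (0.0411), in the exact test of edgeR (0.0391) and without D7 library a or b (0.0339 and 0.0262), and the D7 value with DESeq2 (0.0397) and without D7 library b (0.0229). Endothelial cells are a known source of Tfpi. Of the 5 endothelial genes measured (Cdh5, Kdr, Tek, Emcn and Tie1), 3 fell at D4 and 4 at D7. Their summed scaled counts were 566.2 and 668.5 in control, 325.1 to 428.0 on D4 and 234.4 to 338.5 on D7, none of the 5 was at 0 in any library, and their part in the Tfpi values was not tested.

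F13a1 (chromosome 17, 28504623 to 28680362) was the gene with the widest spread between libraries of a group. It had 1351 and 1466 counts in control, 2143 and 1950 on D4 and then 321 and 1376 on D7. D7 library a held less than any other library, and D7 library b lay beside the control and D4 libraries. The scaled counts were 69.6 and 88.4 in control, 87.96 and 72.0 on D4, and 15.1 and 68.1 on D7. No change was detected at D4 (log2 fold change 0.02, standard error 0.60, edgeR adjusted p = 0.982) or at D7 (−0.93, standard error 0.61, adjusted p = 0.274). The D7 value rested on which library was kept. Without D7 library a the log2 fold change at D7 was −0.18 with an edgeR adjusted p of 0.546, and without D7 library b it was −2.39 with an adjusted p of 0.00268.

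Other genes separated the D7 libraries in the same way. The hemoglobin chain Hbb, the second most similar gene to F13a1 across the 6 libraries, had 3810 and 3485 counts in control, 5040 and 4029 on D4 and then 355 and 2372 on D7. Globin genes are near copies of each other, so the share of fragments given to Hbb is uncertain. The adipocyte gene Adipoq, which encodes adiponectin, had 10687 and 7328 counts in control, 3254 and 1729 on D4 and then 49 and 3730 on D7. Summed over the 5 adipocyte genes, the scaled counts were 1174 to 1376 in control, 243.4 to 505.8 on D4 and 50.1 and 581.0 on D7. F13a1 was 4.52-fold higher in D7 library b than in D7 library a, Hbb 7.04-fold and Adipoq 80.2-fold. The resident macrophage genes Cd163 and Mrc1 differed between the same libraries by 1.31-fold and 1.14-fold. All 8 macrophage genes together summed to 728.2 scaled counts in D7 library a and 906.2 in D7 library b, and Ptprc among them was at 61.3 and 93.2. Platelets are a known source of F13a1. Of the 6 platelet genes, Ppbp, Gp9, Gp1ba and Gp6 had 5 counts or fewer in every library. The 6 summed to 5.61 to 7.42 scaled counts in control and 12.3 to 14.9 in the injured libraries. Of this sum Pf4, which macrophages also express, gave 2.63 and 2.77 in control and 9.39 to 11.9 in the injured libraries. Itga2b did not rise, with 55 and 76 counts in control, 29 and 41 on D4 and then 65 and 56 on D7. Its log2 fold change was −1.44 at D4 (edgeR adjusted p = 0.0170) and −0.34 at D7 (adjusted p = 0.442). The part of these cells in the F13a1 values was not tested.

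**Figure D3:**
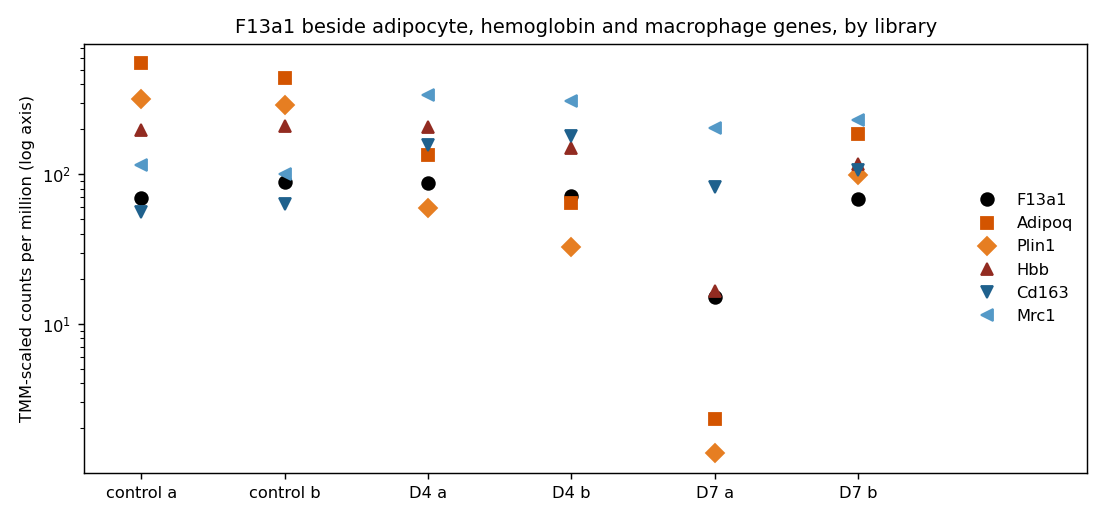
TMM-scaled counts (CPM, vertical log axis) of F13a1, the adipocyte genes Adipoq and Plin1, the hemoglobin chain Hbb and the macrophage genes Cd163 and Mrc1 in each of the 6 libraries. In D7 library a F13a1 is at 15.1, Hbb at 16.7 and Adipoq at 2.30, whereas Mrc1 is at 203.5.

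The order of the levels shifted with time. By FPKM the control libraries ran from Anxa2 (228.2 and 217.7) through Serpine2 (70.1 and 59.5), Plat (56.3 and 49.4), F3 (41.4 and 52.7), F13a1 (15.6 and 20.3), Tfpi (12.4 and 13.5) and Plau (6.38 and 6.57) to Plaur (1.01 and 1.14). Plat and F3 overlapped and exchanged places between the control libraries, and the other neighbours were separate. On D4 the order was Anxa2, Serpine2, Plat, Plau, F3, F13a1, Tfpi and Plaur in both libraries, with Serpine2 at 449.8 and 462.4 close under Anxa2 at 471.5 and 490.0. On D7 Plat (217.2 and 203.0) stood above Serpine2 (115.2 and 150.8), and F3 (32.5 and 35.2) above Plau (18.4 and 20.5). F13a1 on D7, at 4.17 and 19.1, overlapped Plau, Tfpi and Plaur. FPKM follow the mRNA total of a library without a composition factor, so they were used for levels and not for the tests.

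**Figure D4:**
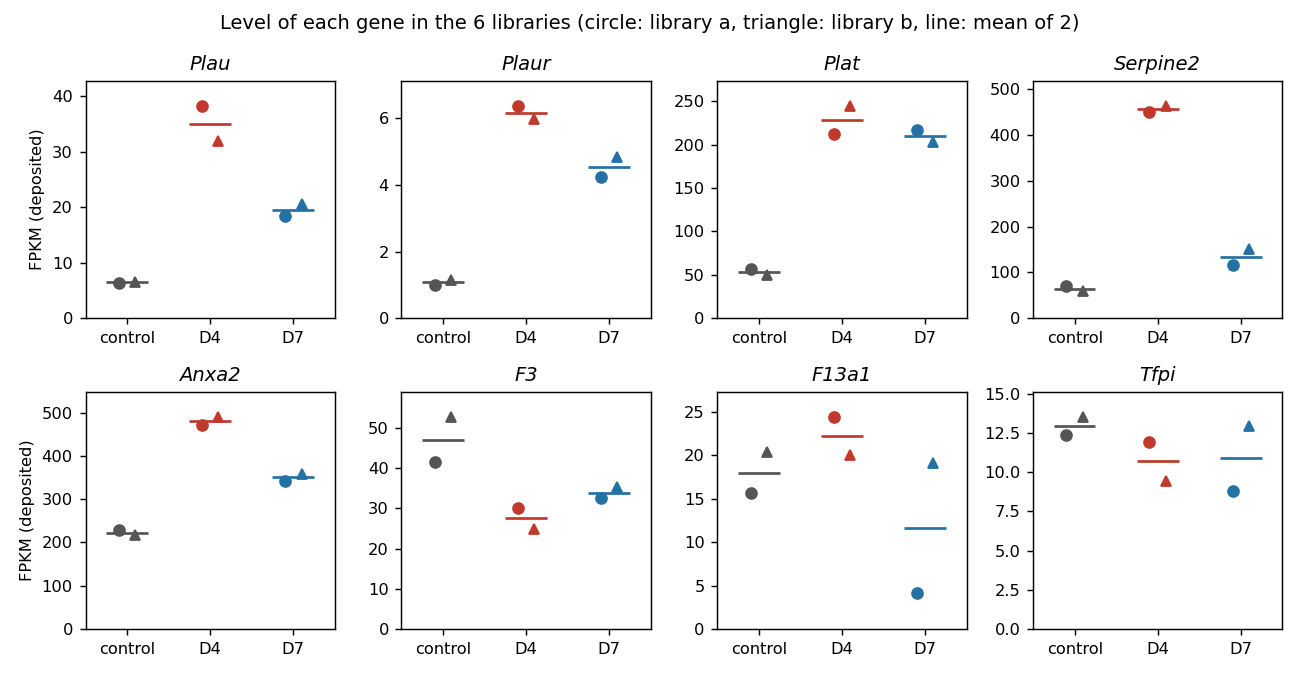
Deposited FPKM (vertical axes, from 0) of each of the 8 genes in control, D4 and D7, with circles for library a, triangles for library b and a line at the mean of 2. Plau, Plaur, Serpine2 and Anxa2 are highest on D4 and intermediate on D7, Plat is near level on both days, F3 is highest in control, and the F13a1 libraries of D7 lie at 4.17 and 19.1.

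The genes whose log2 scaled counts had the highest Pearson r with each member over the 6 libraries were taken from about 9880 genes. These had a mean of at least 10 scaled counts. This r compares the shape of profiles and not the size of the changes. The libraries fall into 3 groups, so a high Pearson r mostly reflects the same order of the groups and is given as a description. For Plau they were Psmd2, RGD1305350 and Rfc2 (r of 0.999 each), for Plaur Slc7a7, Phf23 and LOC100360117, for Plat Erp29, Lpcat1 and Ddb1, for Serpine2 Rpn2, Cbl and Raly, for Anxa2 Slc35e3, Gnai2 and LOC100911959, for F3 Prosc, Ppm1b and Snx25, and for Tfpi LOC690000, Cebpa and Fam210a. For F13a1 they were Atp10d, Hbb and Sfrp2, at r of 0.988, 0.987 and 0.986. An r of at least 0.95 was reached by 764 genes with Plau, 1055 with Plaur, 999 with Plat, 222 with Serpine2, 430 with Anxa2, 334 with F3, 85 with Tfpi and 30 with F13a1. Among the members themselves, Serpine2 and Anxa2 had an r of 0.984, Plau and Plaur of 0.975 and Plat and Plaur of 0.975, and F3 had negative values with Plau (−0.93) and Plat (−0.96).

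Outside these 8 genes, 40 further genes of the plasminogen and clotting systems were set out in 5 lists, of which 22 passed the filter on low counts. At D4, 5 of the 22 rose and 2 fell by the adjusted p-value, where 44.2% of all mRNAs changed, and 1 was called higher and 2 lower, where 21.9% were called. At D7, 2 rose and 3 fell, where 37.5% of all mRNAs changed, and 2 were called lower, where 18.8% were called in either direction. The median log2 fold change of the 22 was 0.32 at D4 and −0.12 at D7, beside −0.04 and 0.01 for all mRNAs. In the comparison of the days, 1 of the 22 passed, where 4.67% of all mRNAs did, the enolase gene Eno1, which was higher at D4 than on D7.

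Plasminogen and its binding partners were measured by 7 genes, all tested. Plg itself, which the liver makes for the blood, had 53 and 68 counts in control, 21 and 15 on D4 and then 55 and 19 on D7. These are low counts, and D7 library a lay with the control libraries. Plg fell at D4 (log2 fold change −2.26, standard error 0.57, edgeR adjusted p = 0.0212), a call that was lost without control library b (−1.95, adjusted p = 0.0777), without D4 library a (−2.61, adjusted p = 0.0762) and without D4 library b (−1.98, adjusted p = 0.128). At D7 it was −0.95 (adjusted p = 0.208). Vtn, which encodes vitronectin, the matrix and plasma protein that binds the urokinase receptor, fell from 1054 and 646 counts in control to 246 and 291 on D4 and then 182 and 178 on D7. Its log2 fold change was −2.16 at D4 (standard error 0.18, adjusted p = 0.000411) and −2.43 at D7 (standard error 0.18, adjusted p = 0.000524). Eno1, a glycolytic enzyme that also binds plasminogen at cell surfaces, was named after its values were seen. It had 3022 and 2741 counts in control, 6363 and 6313 on D4 and then 2917 and 3315 on D7, and rose by 0.62 on the log2 scale at D4 (adjusted p = 0.00842, and 0.0634 without D4 library a).

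Among the other inhibitors of plasminogen activation and plasmin, 6 genes were examined and 2 were tested. Serpini1, which encodes neuroserpin, an inhibitor of tissue plasminogen activator, and Serpinf2, which encodes the plasmin inhibitor alpha-2-antiplasmin, had 82 counts or fewer in each library and did not pass at either day. Serpinb2, Serpina5, A2m and Cpb2 were listed at 0 counts in all 6 libraries.

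Of the 15 clotting factor and fibrinogen genes 14 were found and 4 tested. F5, the cofactor of factor X, rose from 58 and 80 counts in control to 294 and 216 on D4 (log2 fold change 1.36, standard error 0.31, edgeR adjusted p = 0.0152). Without control library a this was 1.05 (adjusted p = 0.0508) and without D4 library a 1.04 (adjusted p = 0.0904), and at D7 it was 0.96 (adjusted p = 0.0560) on 156 and 158 counts, which passed in 5 of the alternatives, such as DESeq2 (adjusted p = 0.0331). Vwf, which encodes the endothelial carrier of factor VIII, had 6646 and 15070 counts in control, 5095 and 6368 on D4 and then 1905 and 4332 on D7. It was lower at D7 (log2 fold change −2.04, standard error 0.56, adjusted p = 0.0330), and control library b held far more of it than library a. That call was lost without control library b (−1.18, adjusted p = 0.118), D7 library a (−1.51, adjusted p = 0.114), or D4 library a or b (adjusted p = 0.0668 and 0.0673), and in the 2-group fit (0.0672). At D4 its value of −1.49 did not pass (adjusted p = 0.0707), but it was called with the library letter as a replicate block (0.0268), in the exact test of edgeR (0.0220) and without control library a (0.0230), D7 library a (0.0462) or D7 library b (0.0436). The fibrinogen chains Fga and Fgb had 0 counts in every library except 5 counts of Fgb in D4 library a, and Fgg had 5 or fewer in each. Col1a2, a collagen chain that fibroblasts express strongly, was also listed at 0 in all libraries beside 248374 to 483438 counts of Col1a1, so a listed 0 need not mean that a transcript was missing.

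Among 8 anticoagulant genes 5 were tested and none was called. Serping1, the C1 inhibitor that also blocks plasma kallikrein and factor XII, rose at both days (log2 fold changes 0.69 and 0.56, edgeR adjusted p = 0.0172 and 0.0394). Pros1, which encodes protein S, rose at D4 (0.44, adjusted p = 0.0425), and Tfpi2 fell at D7 (−0.85, adjusted p = 0.0239). None of these 4 changes held under every omission of 1 library, where the adjusted p reached 0.0918 and 0.148 for Serping1 at D4 and D7, 0.163 for Pros1 and 0.103 for Tfpi2. Of the 4 protease-activated receptors, F2r, the main thrombin receptor, had 539 and 462 counts in control, 1209 and 1233 on D4 and then 941 and 1010 on D7. F2r rose 1.71-fold at D4 (log2 fold change 0.77, standard error 0.10, adjusted p = 0.00221) and 1.69-fold at D7 (0.76, standard error 0.11, adjusted p = 0.00323). The other 3 receptors had 180 counts or fewer in a library and did not pass. Serping1, Pros1, Tfpi2 and F2r were named after their values were seen.

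**Figure D5:**
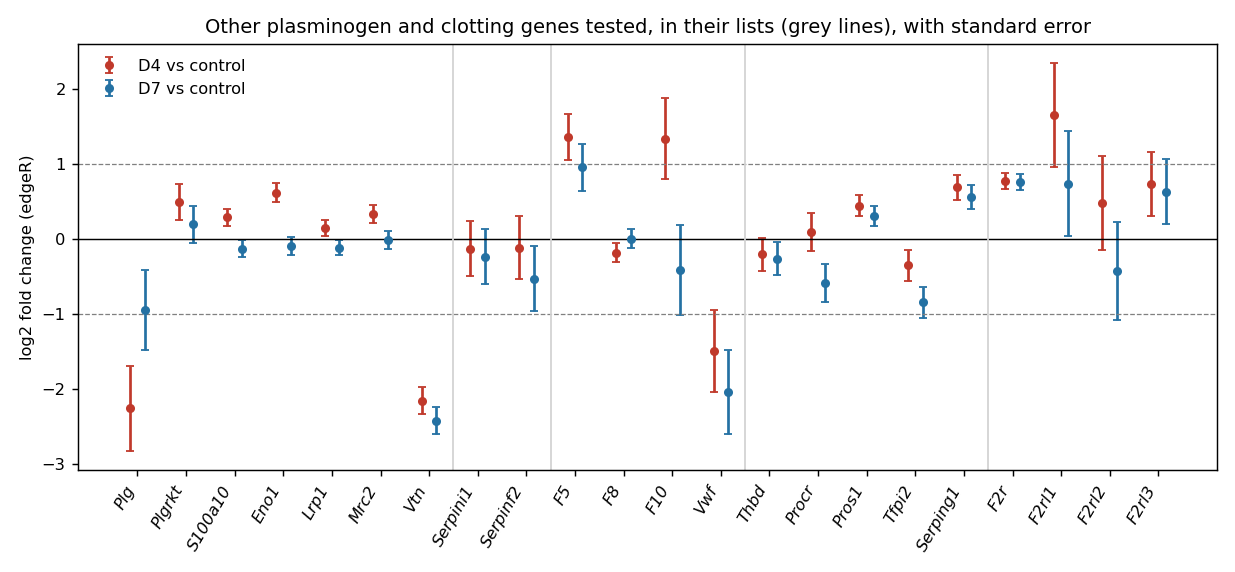
Fitted log2 fold change (vertical axis) of the 22 other plasminogen and clotting genes tested (horizontal axis, grey lines between the 5 lists) for D4 and D7 against control, with bars of 1 standard error and dashed lines at 2-fold. Vtn lies below −2 at both days, F5 is called higher at D4, and Vwf is called lower at D7.

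The deposited lncRNA table gave a second readout at these loci. The spans of 5 lncRNA transcripts, all from NONCODE, overlapped a member's gene, 1 each at Plau, Plaur, Plat, Anxa2 and Tfpi, and no other listed gene overlapped any of the 8. The counting was not stated to use strand, so fragments of these transcripts and of the gene around them cannot be told apart. All 5 were tested. At D4, 2 of the 5 were called, both higher, where 10.1% of all lncRNAs were called and 5.19% as higher, and at D7 1 of the 5 was, where 5.79% were and 3.0% as higher. Between the days, where 0.249% of all lncRNAs were called, 0 of the 5 were called with edgeR, 0 with DESeq2 and 1 with the exact test, and 2 had an unadjusted p-value under 0.05.

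NONRATT012091.2, of 764 nt and inside Plat (chromosome 16, 74104570 to 74105333), had 54 and 37 counts in control, 181 and 217 on D4 and then 179 and 160 on D7. It rose at both days, with log2 fold changes of 1.97 (D4, standard error 0.23, edgeR adjusted p = 0.00850) and 1.81 (D7, standard error 0.23, adjusted p = 0.0152). Leaving out D4 library a or b took the D4 call to adjusted p = 0.0568 and 0.0670, and the D7 call was lost without any of the libraries except control a, with adjusted p-values up to 0.0919. NONRATT010725.2, of 381 nt and inside Plau (chromosome 15, 3649299 to 3650724), had 1 and 1 counts in control, 22 and 29 on D4 and then 5 and 5 on D7. Taken over both libraries of a group it was 22.8-fold higher, with a 95% exact counting interval of 5.99 to 193.3 that covers counting error only (edgeR adjusted p = 0.00912, and 0.0549 to 0.0887 when a control or D4 library was left out). NONRATT000460.2 at the start of Plaur had 1 and 3 counts in control, 12 and 24 on D4 and then 6 and 6 on D7, 8.04-fold higher at D4 on summed counts (interval 2.88 to 31.1, edgeR adjusted p = 0.0527). NONRATT027865.2, at the end of the Anxa2 span, had 36 and 21, 68 and 95, and 42 and 51 counts in the 3 groups and did not pass (log2 fold change 1.35 at D4, adjusted p = 0.0588), and NONRATT019424.2, which reaches past Tfpi, had 15 counts or fewer in each library.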

How the data were processed

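Sciatic nerve RNA of 6 rats (2 each in control, D4 and D7) was sequenced by the authors on an Illumina instrument after removal of ribosomal RNA. Per the labels and methods, reads were mapped with HISAT2 2.0.4 to Rnor_6.0, and transcripts were assembled and fragments counted with StringTie 1.3.0. The deposited counts are whole and unnormalized. FPKM were also deposited by the authors. Although TMM is named before FPKM in the methods, the deposited mRNA FPKM follow counts, length and library total alone. lncRNA totals were 2694777 to 3043817 fragments.

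Low counts were removed with filterByExpr, and libraries were scaled by TMM factors (0.863 to 1.08 for mRNAs) and fitted in 1 quasi-likelihood model of all 6 libraries with edgeR 4.0.16 in R 4.3.3, with Benjamini-Hochberg adjustment over all 15195 mRNAs or 14077 lncRNAs. Standard errors are the absolute log2 fold change over the square root of F. The biological coefficient of variation was 0.181 for mRNAs and 0.399 for lncRNAs. The fit was also run on simulated counts in which far fewer genes changed than in these data, and by the same amount at D4 and D7. That run does not test the fit under changes as broad as those seen here. Similarity used log2 scaled counts with a prior count of 2. Genes named were the 8 members, Plg, S100a10, Fga, Fgb, Fgg, the up to 3 largest called changes of each list, and the 3 genes most similar to each member. Of the genes in the lists, 3 are not reported here and enter no list count. The members and lists were chosen with earlier results of these data known. Kng1 among the pathway genes, and Pecam1, Myh2 and Myh4 among the markers, were not listed under these symbols. The alternatives were 2-group fits, a block for the letter, DESeq2 1.42.0, the exact test of edgeR, fits without TMM factors or without the filter, at least 10 counts in every library, 2 other thresholds, and leaving out each library. Where a lone library was left in a group, it was assumed to vary like the other groups. Letters do not pair rats. The other 2 marker sets checked, skeletal muscle (5.21 to 42.2 summed scaled counts in a library) and neutrophil (16.9 to 55.2), and fibroblast genes (28920 to 59710) and hepatocyte genes (1.64 to 7.88), are given for completeness. Figures were drawn with matplotlib 3.10.9 in Python 3.11.15.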

Additional observations from a re-analysis of the deposited data

Results flagged for a closer look

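The changes against control at D4 and at D7 differed from each other, in the direct test of D7 against D4 within the same fit, for 3 of the plasminogen and clotting genes tested. Serpine2 fell from D4 to D7 (log2 fold change −1.79, edgeR adjusted p = 0.0117, lower in 2 of 2 D7 libraries than in both D4 libraries), and the adjusted p was 0.139 and 0.112 without D4 library a or b. Plau fell by 0.86 on the log2 scale (log2 fold change −0.86, adjusted p = 0.0250, likewise lower in 2 of 2 libraries), and the adjusted p was 0.114 to 0.196 without D4 library a, D4 library b or D7 library a. Eno1 fell with a log2 fold change of −0.72 (adjusted p = 0.0364, lower in 2 of 2 libraries), and the adjusted p was 0.165 to 0.244 without the same libraries and 0.0633 with the replicate block. These 3 genes were picked by their adjusted p-value in the same libraries, so this separation is a description and adds no support. Groups of 2 libraries could not be screened for a single sample far from the others.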

How the results depend on the processing

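With 2 rats a group, fold changes rest on 2 libraries an arm. The p-values weigh a change against the spread between these rats only. That spread was estimated over the 3 groups with information shared across genes. The number of members called at D4 was 4 to 6 under every alternative. At D7 it was 3 or 4, except 2 when the 2-fold change itself was tested (Plau was lost, edgeR adjusted p = 0.0801) and 6 with no fold threshold. Leaving out 1 library gave 4 to 5 at D4, 3 to 4 at D7 and 0 to 2 between the days, where it was 0 when the 2-fold change itself was tested (1 at an unadjusted edgeR p under 0.05), 0 without D4 library a or b (3 each at an unadjusted edgeR p under 0.05), and 2 with no fold threshold. Of 344 repeats of the members' log2 fold changes, 327 kept their direction and their call at 2-fold, 8 lost and 4 gained a call, and 5 changed sign, all in values that had not passed. By the adjusted p-value alone, 286 of 320 repeats (without those that tested the 2-fold change) stayed on their side of 0.05, 14 lost and 15 gained it. The changes of sign were in F13a1 at D4 (−0.145 to 0.20 when 1 library was left out) and Tfpi between the days (−0.017 with DESeq2, −0.27 to 0.25 when 1 library was left out). Without TMM factors the median of all mRNAs was 0.25 at D4 and 0.31 at D7, 69.3% and 70.4% of called mRNAs were higher instead of 51.2% and 52.1%, Anxa2 at D4 (1.11) and Serpine2 at D7 (1.04) passed 2-fold, F3 at D4 (−0.77) did not, and 2 other values turned positive at D7, Eno1 (0.20) and S100a10 (0.17). Values that changed sign when 1 library was left out were those of Eno1 at D7 (−0.229 to 0.061), S100a10 at D7 (−0.259 to 0.017), Pros1 between the days (−0.345 to 0.039) and F2r between the days (−0.108 to 0.061).

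All mRNAs called numbered 3333 at D4, 2863 at D7 and 331 between the days. Testing the 2-fold change gave 1683, 1217 and 37, and no fold threshold 6715, 5705 and 710. Between the days DESeq2 gave 521 and the exact test 631. Leaving out 1 library gave 2540 to 3437, 2284 to 2859 and 0 to 469. It was 0 without D4 library a or b, where 2054 and 2296 mRNAs had an unadjusted edgeR p under 0.05, and 99 without D7 library a. The lncRNAs at member loci called at D4 were 4 with the exact test and 4 without TMM factors, and 0 to 2 when 1 library was left out (0 without D4 library a or b, where edgeR gave 4 and 3 at an unadjusted p under 0.05). At D7 they were 0 when the 2-fold change was tested and 0 to 1 when 1 library was left out, and between the days 1 with the exact test and 0 to 0 when 1 library was left out. The cause of these differences was not tested.

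With the library letter as a replicate block the members called were 5, 3 and 1, as many as without it, and all mRNAs called were 3281, 2827 and 248. Same-letter deviations correlated at 0.0103, 0.195 and −0.134 across mRNAs for D4 and control, D7 and control, and D7 and D4, so the letters were not taken as a pairing. Exchanging the letters of the D4 libraries, which was added after seeing the data, gave 334 mRNAs and 1 member called between the days.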
